A study of Mus musculus with 8 samples.

Results

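The Fc receptors for IgG and the kinases next to them were followed in peritoneal tumors treated with a STING agonist. The members were the genes whose names on the panel were Fcgr1, Fcgr4, Fcgr3, Fcer1g, Fcgr2b, Syk or Lyn, and all 7 were found among the 750 immune-related genes. Of these, 4 encode activating receptors or their shared signaling chain, 1 the inhibitory receptor and 2 kinases. Both groups were wild-type male C57BL/6 mice, 7 to 8 weeks old by the methods, which carried tumors of MC38, a mouse colon cancer cell line, after 500000 cells had been placed in the peritoneum. The first group received PBS. The second received the STING agonist RR-CDA, a cyclic dinucleotide, into the peritoneal cavity from day 7 after implantation, at 15 µg by the methods and in 2 injections by the main text. RNA came from whole tumors, taken 10 days after the first injection, with 4 samples per group.

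Fc gamma receptors sit on macrophages, monocytes, neutrophils, NK cells and B cells and bind the constant part of IgG in immune complexes or on coated cells. The activating receptors pair with the gamma chain encoded by Fcer1g, whose ITAM is phosphorylated by Src family kinases such as Lyn and then binds Syk, whereas the ITIM of the Fcgr2b product recruits the phosphatase encoded by Inpp5d and dampens the signal. Interferon gamma is known to raise the high-affinity receptor encoded by Fcgr1 on myeloid cells, and the balance of activating and inhibitory receptors sets how such cells respond to antibody.

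On the NanoString panel each transcript is counted by a color-coded probe pair. The counts of the 750 genes summed to between 241506 and 414698 per tumor. All values below are counts divided by a sample factor from the geometric mean of 20 housekeeping genes, and are called normalized counts. PBS 2 and PBS 4 differed by less than the sampling noise over 358 genes of moderate count, at a chi-square per degree of freedom of 0.404, where the 11 other pairs within a group gave 5.89 to 12.6. The labels do not say whether PBS 2 and PBS 4 came from separate tumors or from 1 tumor measured again, and this was not tested. Where 8 tumors are named below, PBS 2 and PBS 4 are counted separately. Elsewhere they were averaged and counted as 1 sample, which left 3 PBS and 4 STING agonist samples. This averaged sample stood apart from PBS 1 and PBS 3. It was the lowest of the 7 samples for all 7 members, and for 310 of the 750 genes (41.3%). The labels give the tissue as colon, whereas the tumors grew in the peritoneum. Epcam, an epithelial marker, had means of 11.6 ± 7.12 (SD, n = 3) normalized counts after PBS and 8.75 ± 3.76 (SD, n = 4) after the agonist, near the background of 8.62 counts set by the negative controls. All 7 members had mean counts above that background, the lowest being Syk with 57.8 counts over the 8 tumors.

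Each member was compared between the groups in a fit over the whole panel. No gene passed an adjusted p of 0.05 in edgeR (0 of 750, 0%) or limma, whereas the Wald test of DESeq2 passed 52 genes, with 0 members among them. At an unadjusted p under 0.05, edgeR gave 133 genes higher after the agonist (17.7%) and 10 lower (1.33%). Among the 7 members, 1 was higher at that level, which was Fcgr1, and 0 were lower, a share close to that of the panel. The groups did not overlap for 126 panel genes in the higher direction (16.8%) and 11 in the lower one (1.47%), and among the members for Fcgr1 alone. The higher count was 235 without PBS 3, and the lower one was 31 without PBS 1, 18 without PBS 3, 25 without STING agonist 3 and 19 without STING agonist 4. Scaled by TMM, 70 genes were higher and 48 lower without overlap. The members higher at an unadjusted p under 0.05 numbered 0 without STING agonist 1 or without STING agonist 4, 3 without STING agonist 2 and 4 without PBS 1. Over the panel, by the same p, 77 genes were higher without STING agonist 1 and 79 without STING agonist 4, and without STING agonist 3 there were 21 lower genes and 7 at an adjusted p under 0.05, against 1 without PBS 3.

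**Figure D1:**
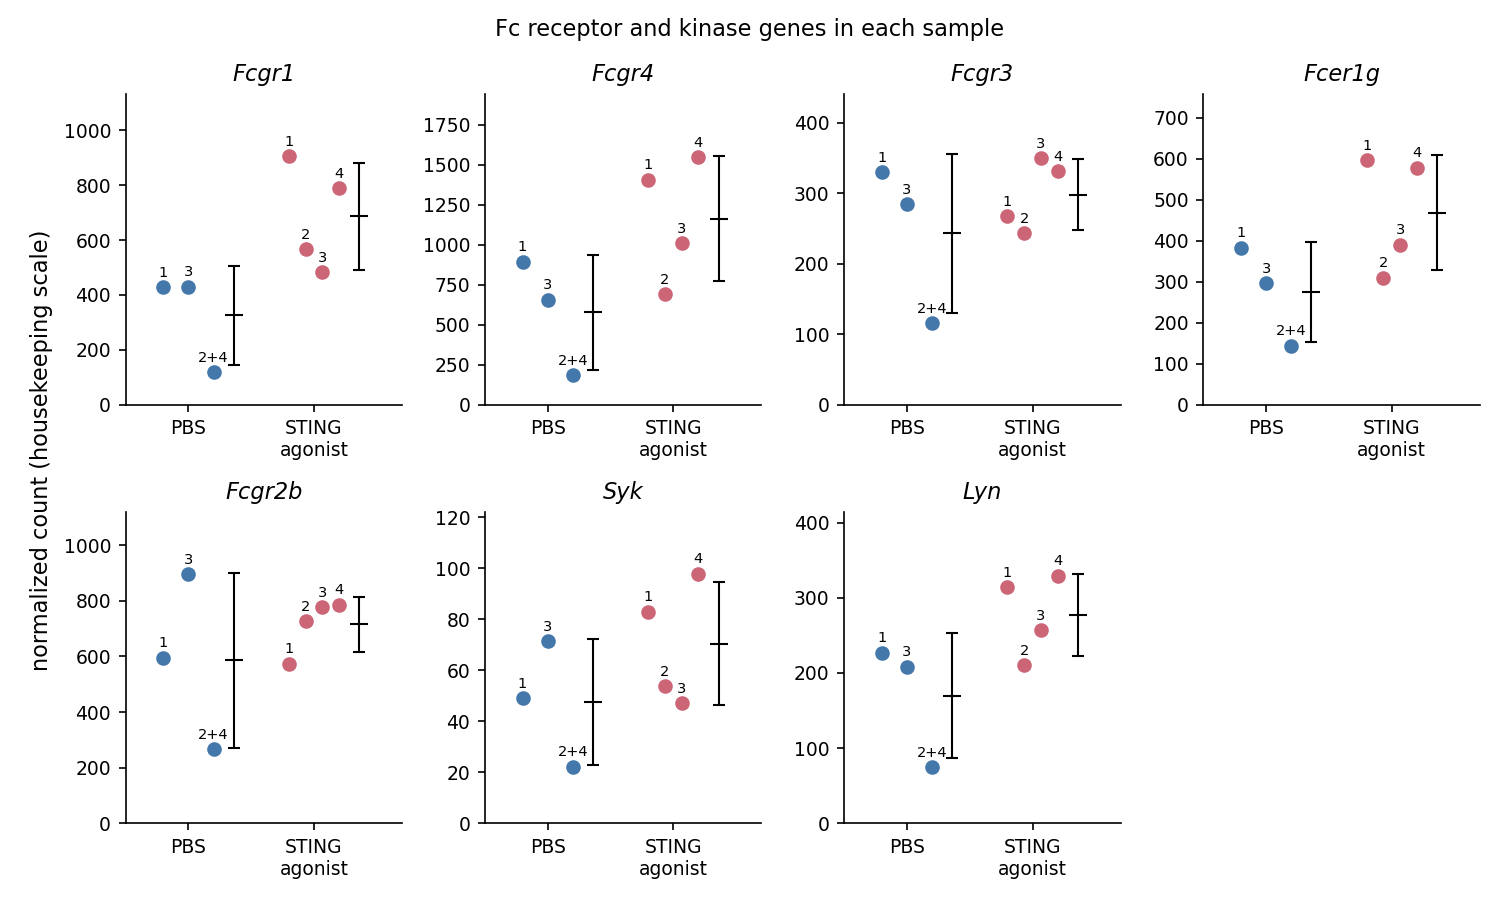
Normalized counts (housekeeping scale, y axis from 0) of the 7 genes in each sample, with PBS in blue and STING agonist in red. Numbers are replicates, 2+4 is the averaged pair, and bars give mean ± SD over 3 and 4 samples. PBS 2+4 is the lowest point of every panel, and only for Fcgr1 do all 4 treated samples lie above all PBS samples.

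Fcgr1 encodes the high-affinity IgG receptor, and its probe is listed for transcript NM_010186.5. Its normalized counts were 429 in PBS 1, 118 in PBS 2 and 4, and 431 in PBS 3, against 906, 566, 483 and 790 in STING agonist 1 to 4. All 4 treated tumors lay above every PBS sample, though STING agonist 3 only slightly so. The mean went from 326 ± 180 (SD, n = 3) to 686 ± 196 (SD, n = 4), a 2.11-fold ratio. The log2 fold change was 1.07 with a standard error of 0.43 and an adjusted p of 0.231. Without PBS 2 and 4 it was 0.67, with an adjusted p of 0.311, within a range of adjusted p from 0.0980 to 0.439 over 23 alternatives.

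Fcgr4 encodes the receptor that binds IgG2a and IgG2b with intermediate affinity and is found on monocytes, macrophages and neutrophils. Its normalized counts were 894, 185 and 656 in PBS 1, PBS 2 and 4, and PBS 3, against 1406, 689, 1009 and 1549 in STING agonist 1 to 4. STING agonist 2 fell among the PBS samples, and the other 3 treated tumors lay above them. The mean was 578 ± 361 (SD, n = 3) after PBS and 1163 ± 390 (SD, n = 4) after the agonist. The log2 fold change of 1.01 had a standard error of 0.48 and an adjusted p of 0.299, and was 0.59 without PBS 2 and 4.

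Fcgr3 encodes the low-affinity activating receptor of macrophages and NK cells. Its values were 329, 115 and 284 normalized counts in PBS 1, PBS 2 and 4, and PBS 3, against 267, 243, 349 and 331 in STING agonist 1 to 4. Only STING agonist 3 and 4 exceeded PBS 1, and 2 treated tumors were lower than PBS 1 and PBS 3. The log2 fold change was 0.29 with a standard error of 0.33 (adjusted p = 0.698). It turned to -0.04 without PBS 2 and 4 and was 0.57 without PBS 1.

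Fcer1g encodes the gamma chain, which carries the ITAM for Fcgr1, Fcgr3 and Fcgr4 products and is needed for their surface expression. Its normalized counts were 383, 143 and 297 in PBS 1, PBS 2 and 4, and PBS 3, against 596, 309, 390 and 578 in STING agonist 1 to 4. STING agonist 1 and 4 were the highest, as for Fcgr1 and Fcgr4, while STING agonist 2 overlapped the PBS samples. The mean was 274 ± 121 (SD, n = 3) after PBS and 468 ± 141 (SD, n = 4) after the agonist, with a log2 fold change of 0.77, a standard error of 0.35 and an adjusted p of 0.274. Without PBS 2 and 4 the log2 fold change was 0.46.

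Fcgr2b encodes the inhibitory receptor, the only Fc gamma receptor with an ITIM. Its normalized counts were 596, 267 and 897 in PBS 1, PBS 2 and 4, and PBS 3, against 573, 727, 778 and 786 in STING agonist 1 to 4. The highest value of all 7 samples was in PBS 3, and STING agonist 1, the sample with the most Fcgr1, had the lowest Fcgr2b of the treated tumors. The means of 587 ± 315 (SD, n = 3) and 716 ± 98.6 (SD, n = 4) differed by less than the spread of the PBS samples. The log2 fold change was 0.29 with a standard error of 0.34 (adjusted p = 0.729). It turned to -0.06 without PBS 2 and 4 and was 0.73 without PBS 3 (adjusted p = 0.239).

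Fcgr2b, Fcgr4, Fcgr3 and Fcer1g lie within 273792 bases of chromosome 1 (chr1:170960558-171234349, GRCm38.p6), and Fcgr1 lies on chromosome 3. To set the receptor genes side by side, the stretch of 130 bases before the start site is shown for the 4 receptor genes, from RefSeq. Capitals mark matches, on either strand, to TTCNNNGAA (the GAS motif), AANNGAAA (an IRF type motif) or GAGGAA (the core of PU.1). The stretches were chr3:96293970-96294099 on the minus strand for Fcgr1, chr1:171018796-171018925 on the plus strand for Fcgr4, chr1:171059404-171059533 on the minus strand for Fcgr3 (the first of its 2 listed starts), and chr1:170976072-170976201 on the minus strand for Fcgr2b.
Fcgr1: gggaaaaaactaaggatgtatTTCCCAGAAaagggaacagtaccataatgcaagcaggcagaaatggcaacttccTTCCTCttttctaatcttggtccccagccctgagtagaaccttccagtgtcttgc
Fcgr4: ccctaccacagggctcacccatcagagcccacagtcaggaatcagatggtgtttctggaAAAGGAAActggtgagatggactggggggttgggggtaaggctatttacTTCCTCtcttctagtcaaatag
Fcgr3: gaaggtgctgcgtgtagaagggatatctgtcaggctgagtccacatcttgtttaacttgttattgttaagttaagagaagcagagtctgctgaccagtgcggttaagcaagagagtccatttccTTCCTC
Fcgr2b: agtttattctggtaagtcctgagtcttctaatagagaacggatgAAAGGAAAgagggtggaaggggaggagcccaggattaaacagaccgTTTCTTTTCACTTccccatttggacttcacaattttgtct
Fcgr1 held 1 GAS match, TTCCCAGAA, beginning 109 bases before its start, and 1 PU.1 core. In the 300-base windows of all 32851 listed starts, a GAS match was present in 8.30%, an IRF type match in 23.9% and a PU.1 core in 28.3%. Fcgr4 held 1 IRF type match and 1 PU.1 core, and Fcgr3 held 1 PU.1 core. Fcgr2b held 3 IRF type matches, of which 2 overlap each other, and no match to the GAS or the PU.1 core. Fcer1g held no match to any of the 3 motifs. A match is a description of the letters and not a site of binding, and binding was not measured here.

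The activating receptors were then set against Fcgr2b within each sample, as the difference of log2(normalized count + 1), which does not depend on the scale between samples apart from the pseudocount of 1. For Fcgr1 this log2 ratio was -0.47 in PBS 1, -1.17 in PBS 2 and 4, and -1.06 in PBS 3, against 0.66, -0.36, -0.68 and 0.01 in STING agonist 1 to 4. PBS 1 lay above STING agonist 3, so the groups overlapped, while the other 3 treated tumors were above every PBS sample. The mean ratio differed by 0.81 on the log2 scale (two-sided exact permutation p = 0.114, adjusted p = 0.882 over 749 ratios), where the smallest p of 35 arrangements is 0.0286. In raw counts of single samples, Fcgr1 was 0.481 times Fcgr2b in PBS 2 and 0.396 times in PBS 4, so the low sample had an Fcgr1 to Fcgr2b ratio close to that of PBS 3, at 0.480.

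For Fcgr4 the log2 ratio to Fcgr2b was 0.58, -0.52 and -0.45 in PBS 1, PBS 2 and 4, and PBS 3, against 1.29, -0.08, 0.37 and 0.98 in the treated tumors. STING agonist 1 and 4 exceeded every PBS sample and the other 2 did not, with a difference of 0.77 (exact permutation p = 0.143, adjusted p = 0.892). The ratio of Fcgr3 to Fcgr2b was -1.24 ± 0.40 (SD, n = 3) after PBS and -1.27 ± 0.21 (SD, n = 4) after the agonist, a difference of -0.03 that changed sign in 3 of the settings that left out 1 tumor. Fcer1g relative to Fcgr2b differed by 0.39 (exact permutation p = 0.371, adjusted p = 0.940), Lyn by 0.40 (exact permutation p = 0.257, adjusted p = 0.911) and Syk by 0.20 (exact permutation p = 0.571, adjusted p = 0.942). Leaving out 1 tumor at a time moved the Fcer1g difference between 0.11 (without PBS 3) and 0.59 (without PBS 1), with 0.15 without STING agonist 1. It moved that of Lyn between 0.23 (without STING agonist 1, and also without PBS 3) and 0.59 (without PBS 1), and that of Syk between -5.84e-05 (without STING agonist 1) and 0.41 (without STING agonist 3). The ratio to Fcgr2b did not overlap between groups for 20 of 749 genes (2.67%) in the higher direction and 19 (2.54%) in the lower one, with 0 of the 6 members in either set.

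**Figure D2:**
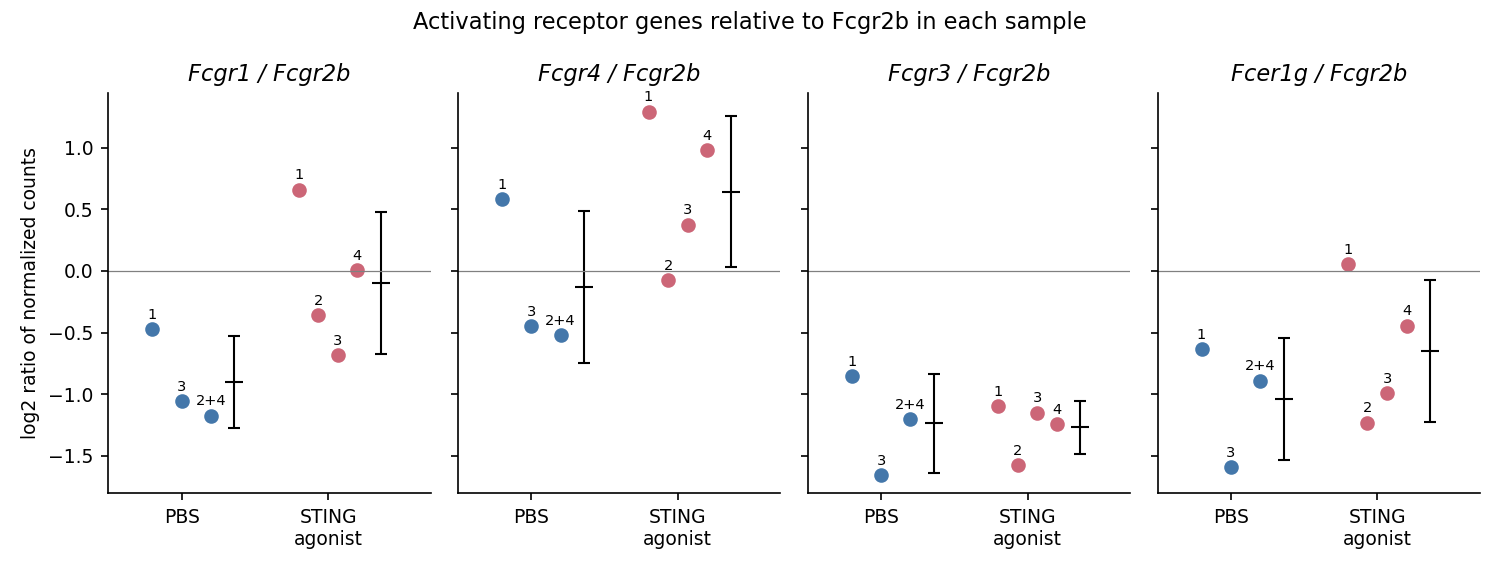
Log2 ratio of each activating receptor gene and of Fcer1g to Fcgr2b in each sample (y axis), with PBS in blue, STING agonist in red, replicate numbers beside the points, and mean ± SD as bars. The Fcgr1 and Fcgr4 ratios are highest in STING agonist 1 (0.66 and 1.29), and in all 4 plots the groups overlap.

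The kinases gave the following values. Lyn, the Src family kinase that phosphorylates both ITAM and ITIM, had normalized counts of 227, 74.6 and 208 in PBS 1, PBS 2 and 4, and PBS 3, against 314, 210, 256 and 329 in STING agonist 1 to 4. STING agonist 2 lay between PBS 3 and PBS 1, and the other 3 treated tumors were above all PBS samples. Its log2 fold change was 0.70 with a standard error of 0.36 and an adjusted p of 0.323. Syk, which docks on phosphorylated ITAMs, had 49.0, 22.1 and 71.3 normalized counts in the PBS samples in that order, against 82.9, 53.8, 47.0 and 97.9 in the treated tumors. Only STING agonist 1 and 4 exceeded PBS 3, and the log2 fold change of 0.56 had a standard error of 0.43 (adjusted p = 0.517). Without PBS 2 and 4 the log2 fold change was 0.35 for Lyn and 0.23 for Syk, and that of Syk was 0.97 without PBS 3 and 0.35 without STING agonist 4.

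The housekeeping scale left a median log2 fold change of 0.21 over all 750 genes, whereas TMM normalization put it at -0.02, a shift of the whole panel. Relative to the panel median, Fcgr1 was 0.86 higher on the housekeeping scale and 0.87 higher under TMM, and Fcgr4 0.79 in both. Fcgr2b was 0.07 and 0.13 above the panel median under these scales, and Fcgr3 0.08 and 0.10. Leaving out 1 tumor on the housekeeping scale moved Fcgr2b between 0.02 (without STING agonist 2) and 0.37 (without PBS 3) relative to the median. It moved Fcgr3 between -0.01 (without STING agonist 3) and 0.39 (without PBS 1). At an unadjusted p under 0.05, TMM gave 87 higher and 40 lower genes in place of 133 and 10. Without PBS 2 and 4, Fcgr2b stood at -0.22 and Fcgr3 at -0.20 relative to the median, Fcgr1 at 0.52 and Fcgr4 at 0.43. Without PBS 1, Fcgr4 stood at 1.29 relative to the median.

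**Figure D3:**
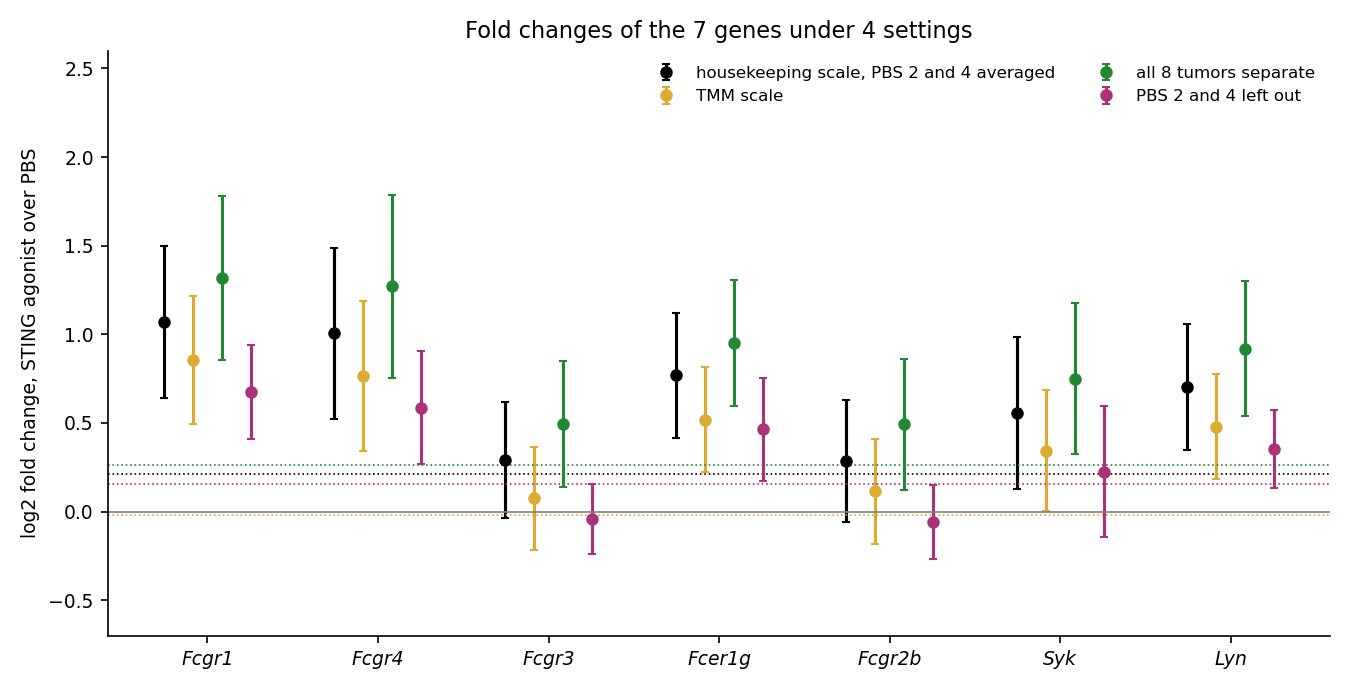
Log2 fold change (STING agonist over PBS) ± standard error of the 7 genes under 4 settings, marked by color, with the median of all 750 genes as a dotted line of the same color. Fcgr1 and Fcgr4 are the highest on the housekeeping scale (1.07 and 1.01), and Fcgr2b and Fcgr3 fall below 0 when PBS 2 and 4 are left out (-0.06 and -0.04).

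In bulk tissue, fewer cells of a type and less RNA per cell cannot be told apart, so the content of cells that carry Fc receptors is given here, and its part in the results was not tested. Ptprc, the gene of the leukocyte antigen CD45, had 108, 42.0 and 111 normalized counts in PBS 1, PBS 2 and 4, and PBS 3, against 257, 166, 140 and 267 in STING agonist 1 to 4. It did not overlap between groups, and it was lowest in PBS 2 and 4 and highest in STING agonist 1 and 4, the same samples as for Fcgr1. The macrophage and monocyte list, 12 measured genes of 15 listed symbols, summed to 4628, 2328 and 6560 normalized counts in the PBS samples and to 7286, 5747, 5898 and 7122 in the treated tumors. Its most abundant gene was Lyz2, which makes lysozyme, and at an unadjusted p under 0.05 it held 2 higher genes, near the 17.7% of the panel, and 2 lower ones, where the panel gave 1.33%. The higher genes included Emr1, the gene of F4/80, with a log2 fold change of 1.29 and a standard error of 0.43. Cd68 differed by 0.30 with a standard error of 0.23, and Csf1r by 0.96 with a standard error of 0.48. The receptors Cd163 and Marco, named after their values were seen, were the lower ones at -1.32 and -1.33.

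The T cell list (8 of 8 genes) summed to 167, 111 and 191 normalized counts after PBS and to 398, 207, 208 and 368 after the agonist, with Cd3d most abundant and 4 genes higher. Cd4, Cd2 and Cd5 of this list were below background. The NK list (8 of 8) summed to 366, 260 and 372, against 616, 344, 392 and 625, with Klrd1 most abundant and 2 genes higher. Both lists were highest in STING agonist 1 and 4. The neutrophil list (8 of 11) summed to 335, 618 and 398, against 682, 319, 584 and 430, with 0 genes past that level. S100a8 gave 82.8% of this sum, which was not low in PBS 2 and 4. By single genes, 3 of the 8 in the neutrophil list were lowest in PBS 2 and 4, against 41.3% of the panel. Of its defining genes Mpo, Elane, Ltf and Cxcr1 had mean counts below background. The dendritic list (7 of 11) summed to 53.7, 69.9 and 76.4, against 112, 61.1, 86.9 and 75.9, with Ccr7 most abundant and 1 gene higher. Xcr1, Cd207 and Lamp3 of this list were below background. The B cell list (8 of 8) summed to 38.9, 53.6 and 78.5, against 87.6, 36.7, 80.7 and 75.0, with Cd79b most abundant. Its defining genes Ms4a1, Cd79a and Pax5 were below background, as were Blk and Cr2. The mast cell and basophil list (4 of 8) summed to 21.3, 40.8 and 44.7, against 35.0, 28.1, 30.7 and 30.0, with Kit most abundant and Ms4a2 and Tpsab1 below background. The list of tumor epithelium and stroma (8 of 8) summed to 9780, 8699 and 7744, against 6553, 7183, 5828 and 7283. Col3a1 alone gave 92.1% of this sum, and the other genes of the list differed in both directions. The list had a median log2 fold change of -0.12, with 1 gene lower and 0 higher. The hepatocyte list (7 of 12) summed to 4129, 1143 and 2492, against 3659, 2847, 3360 and 7720, with 1 gene higher and Apoe, which macrophages also express, giving 94.1% of the sum. The median log2 fold change of this list was 2.03, and its higher gene was Ambp, a plasma protein gene of the liver, at 4.88 with a standard error of 1.95. Ambp had 7.40, 5.83 and 6.48 normalized counts after PBS, against 11.7, 2.44, 8.18 and 762 in STING agonist 1 to 4. STING agonist 4 thus stood apart for a liver marker, and the part of this in the other results was not tested. The panel as a whole had 17.7% of genes higher and 1.33% lower, and the higher share of the NK, dendritic and hepatocyte lists was near this, given their few genes. The lowest count of any gene was 1 in every tumor, and the negative controls averaged 2.25 to 4.75 counts per tumor.

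The members were also set against the summed counts of Emr1, Cd68 and Csf1r in the same sample. Fcgr1 relative to these markers was -1.08, -2.22 and -1.38 on the log2 scale in PBS 1, PBS 2 and 4, and PBS 3, against -0.87, -0.95, -1.24 and -0.96 in STING agonist 1 to 4. STING agonist 3 was below PBS 1 and the other 3 were above every PBS sample, with a difference of 0.56 (exact permutation p = 0.0571, adjusted p = 0.259 over 747 ratios). Fcgr4 differed by 0.52 (exact permutation p = 0.286, adjusted p = 0.452), and its treated samples lay between -0.67 and 0.01. Without PBS 2 and 4 the difference was 0.23 for Fcgr1 and 0.13 for Fcgr4, and without PBS 1 it was 0.91 for Fcgr4. Fcgr3 was at -1.90 ± 0.40 (SD, n = 3) after PBS and -2.18 ± 0.38 (SD, n = 4) after the agonist, and Fcgr2b at -0.66 ± 0.37 (SD, n = 3) and -0.91 ± 0.45 (SD, n = 4). Both differences moved when single tumors were left out. That of Fcgr3 was -0.06 without PBS 1, -0.13 without STING agonist 1, -0.44 without STING agonist 3 and -0.46 without PBS 2 and 4. That of Fcgr2b was -0.04 without STING agonist 1, -0.08 without PBS 3 and -0.44 without PBS 2 and 4. Fcer1g differed by 0.14, Lyn by 0.15 and Syk by -0.05 (exact permutation p = 0.571, 0.571 and 0.714). Without PBS 1 the difference of Fcer1g was 0.37 and that of Lyn 0.36, and without PBS 2 and 4 they were 0.02 and -0.07. Fcer1g was also at 0.03 without PBS 3, 0.22 without STING agonist 2 and 0.09 without STING agonist 4. Syk ran from -0.16 (without STING agonist 4) to 0.09 (without PBS 3) when 1 tumor was left out, and was at -0.22 without PBS 2 and 4. The ratio to these markers did not overlap between groups for 23 of 747 genes (3.08%) in the higher direction and 125 (16.7%) in the lower one, with 0 of the 7 members in either set. All of these ratios rest on the choice of Emr1, Cd68 and Csf1r, with log2 fold changes of 1.29, 0.30 and 0.96. In the same list Cd163, Marco and Mrc1 were at -1.32, -1.33 and -0.27, and the other genes were positive. Other marker sets were not used as the denominator.

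Likeness between genes was measured as the root mean square difference of their centred log2 levels over the 7 samples, as a description with no test. Among the members, Fcer1g and Lyn were closest at 0.16, then Fcgr2b and Fcgr3 at 0.26, and Fcgr1 and Fcgr4 at 0.27, whereas Fcgr2b and Fcgr4 were farthest apart at 0.65. Among 510 other genes with a mean of at least 20 counts, the nearest to Fcgr1 were Tlr9 at 0.15, the protease gene Ctss at 0.17 and Ptprc at 0.17, where the median gene was at 0.80. Klra2 at 0.25 and Il10ra at 0.26 were among the 3 genes nearest to Fcgr4. Fcer1g was nearest to Ctsh at 0.15, Ly9 at 0.18 and Trem2 at 0.18. Fcgr3 was nearest to Inpp5d, the phosphatase that Fcgr2b recruits, at 0.14, then Ccr1 at 0.17 and Il18 at 0.21. Fcgr2b was nearest to the lectin receptor Clec4n at 0.21, Mertk at 0.21 and Il4ra at 0.22. Each of these neighbors kept its rank under TMM normalization.

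The wider pathway was counted over 54 genes outside the members. At an unadjusted p under 0.05, 16 were higher and 0 lower, where the panel gave 17.7% higher and 1.33% lower. Of the 16, 10 came from the list of 15 interferon gamma response genes, so the count is mostly that of this list. In edgeR 0 of the 54 genes had an adjusted p under 0.05. The median log2 fold change of the 54 genes was 0.56, against 0.70 for the 7 members and 0.21 for all 750 genes. Without STING agonist 1, or without STING agonist 4, the count of higher genes was 10.

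Among genes of ITAM partners and adaptors, 3 of 9 measured were higher, with a median log2 fold change of 0.57, where 17.7% of the panel was higher. Clec7a, the receptor for beta-glucan that signals through Syk, had 22.2, 21.0 and 48.3 normalized counts after PBS and 116, 112, 49.1 and 99.7 after the agonist, so STING agonist 3 was next to PBS 3. Its log2 fold change was 1.60 (standard error 0.42, adjusted p = 0.171). The adaptor gene Blnk differed by 0.95 and Cd3e, a chain of the T cell receptor complex, by 1.18. Among the Src, Syk and Tec family kinases 2 of 7 were higher, near the share of the panel, with a median of 0.69. Btk, a Tec family kinase of B cells and myeloid cells, was at 0.69 and did not pass that level.

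Downstream enzymes had 0 of 12 genes past that level in either direction and a median log2 fold change of 0.02, below that of the panel. The inhibitors gave 0 of 2, with a median of 0.39. Inpp5d, which encodes the lipid phosphatase SHIP1 at the ITIM of Fcgr2b, had means of 27.8 and 34.5 normalized counts and a log2 fold change of 0.30 (standard error 0.39, adjusted p = 0.743). Receptors for IgE and other antibody classes gave 0 of 3, with a median of -0.37, and Ms4a2 and Fcer2a were below background. Of the other ligands and immune complex genes 1 of 6 was higher, near the 17.7% of the panel, with a median of 0.67. This was C3, the central complement component, at 1.79 (standard error 0.52, adjusted p = 0.181), with 217, 247 and 378 normalized counts after PBS and 528, 819, 492 and 2046 after the agonist. The highest value was that of STING agonist 4, which also had the most Ambp, and as the liver makes C3 too, its part in this difference was not tested.

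Interferon gamma response genes had 10 of 15 higher and 0 lower, with a median of 1.02, where the panel gave 17.7% higher. Cxcl9, a chemokine that attracts T cells, had 204, 79.3 and 259 normalized counts in the PBS samples, against 871, 875, 468 and 1239 in STING agonist 1 to 4. All 4 treated tumors exceeded every PBS sample, with STING agonist 3 the lowest of them. Its log2 fold change was 2.25 (standard error 0.44, adjusted p = 0.171). Cd74, the invariant chain of MHC class II, differed by 2.48 and the guanylate-binding protein gene Gbp5 by 1.36. The transcription factor gene Irf1 was 1.01 higher with a standard error of 0.21, and Cd274, which encodes PD-L1, 1.23 with a standard error of 0.35. None of these 5 genes passed an adjusted p of 0.05 in edgeR.

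**Figure D4:**
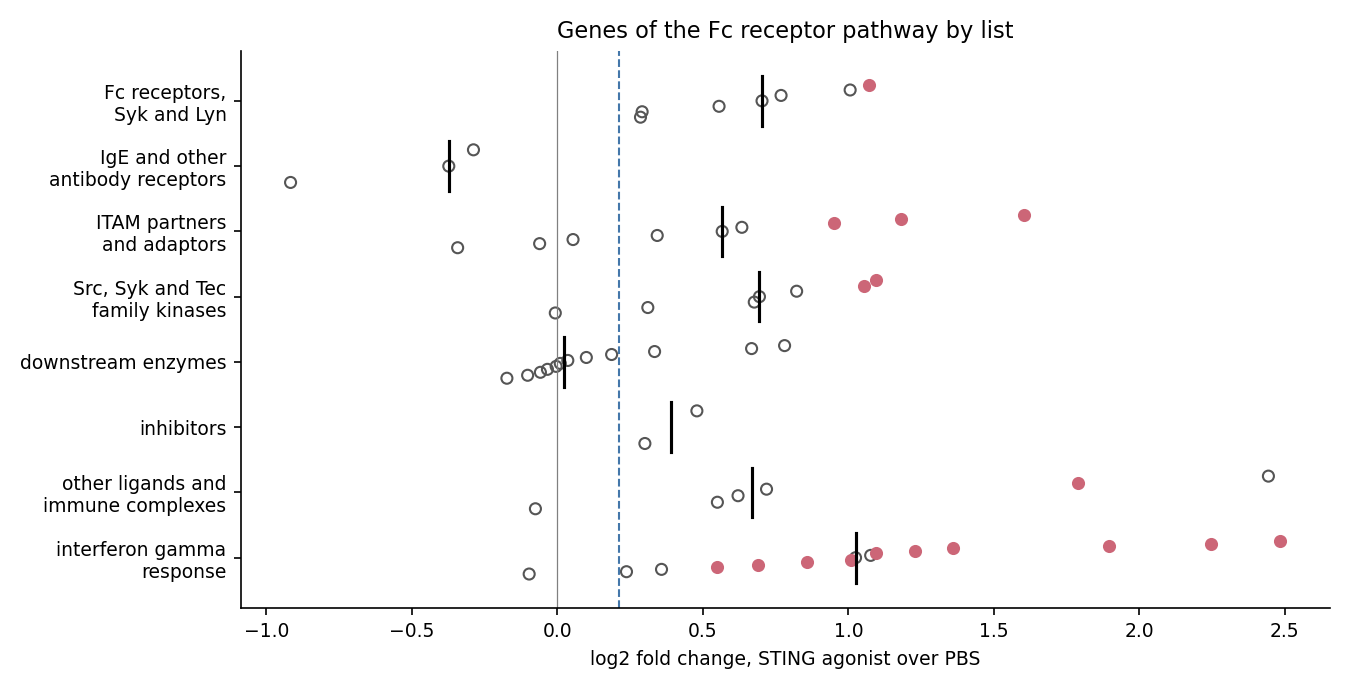
Log2 fold change (STING agonist over PBS, x axis) of every measured gene in the Fc receptor set and in 7 pathway lists, with filled red points for an unadjusted p under 0.05 in edgeR, black bars for list medians and a dashed line for the median of all 750 genes (0.21). Filled points are most frequent among the interferon gamma response genes (10 of 15), and none is present among the downstream enzymes.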

How the data were processed

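The authors deposited whole-number counts per probe from the mouse PanCancer Immune Profiling panel of NanoString (RNA from whole tumors), without scaling or background subtraction. Their methods describe normalization to housekeeping genes with nSolver and R, versions not given in the sources used here. Groups come from the labels, and dose, injections, age and collection day from the methods and text, which also say that experiments were pooled, without the tumors' assignment. Labels do not state whether each sample is a separate animal, so p-values measure the spread between these samples.

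Here the 20 housekeeping genes gave the scale of each sample (their geometric mean), PBS 2 and 4 were replaced by the rounded mean of their counts (3 against 4 samples), and all 750 genes were fitted without a filter in edgeR 4.0.16 under R 4.3.3 (quasi-likelihood test), with Benjamini-Hochberg adjustment over the 750. Ratios used a pseudocount of 1 and a two-sided exact permutation over 35 arrangements, adjusted over all other panel genes (Python 3.11.15, scipy 1.17.1). Both tests were run on simulated data whose spread was fixed in advance and not taken from these samples. Those runs check the code and do not show how the tests perform here. Genes of moderate count had a mean of 20 to 300. Background was set in each sample at 2 SD above the mean negative control, then averaged. Promoters and names came from RefSeq tables (GRCm38.p6), with 727 probes matched by transcript, 16 by symbol and 7 unmatched; 6 of the 7 members had a promoter entry. Totals of 241506 to 414698 counts leave genes near background with a large counting error.

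The members and lists were chosen with earlier results of these data known. Named genes were the members, Ptprc, Emr1, Cd68 and Csf1r, up to 6 pathway genes per list with the lowest unadjusted p under 0.05, Inpp5d and Btk, the 3 genes most like each receptor gene or Fcer1g, and the most abundant gene of each marker list. Ambp, marker genes below background and the lower macrophage genes were chosen for naming once their values were known. Single values of some genes under this rule are not reported here.

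Alternatives were other scales (TMM, DESeq2 size factors, total count, positive controls, housekeeping genes of at least 100 counts), background subtraction, filters at a mean of 20 counts or at background, DESeq2 1.42.0, limma 3.58.1, the per-gene test the methods name, pseudocounts of 0.1 and 20, all 8 tumors separate, PBS 2 and 4 left out, each tumor left out, and the replicate number as a block. Averaging PBS 2 and 4 after scaling was added after seeing the data. Protein sequences were not analysed here.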

Additional observations from a re-analysis of the deposited data

Results flagged for a closer look

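The gap of the highest or lowest treated tumor to its nearest neighbor, divided by the range of the 4 treated tumors, was examined for 24 values of the members, the macrophage marker genes and Ptprc. It exceeded Dixon's 95% limit in 0 of them, where chance gives about 1.2. The PBS samples, 3 after averaging, were not tested in this way.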

How the results depend on the processing

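The fold changes of Fcgr1, Fcgr4, Fcer1g, Syk and Lyn kept their direction in all 23 alternatives. No member passed an adjusted p of 0.05 under any alternative, and Fcgr1 had an unadjusted p under 0.05 in 19 of 23. The cause of the changes below was not tested. At an unadjusted p under 0.05, higher and lower genes numbered 87 and 40 under TMM, 81 and 45 with DESeq2 size factors and 68 and 31 on the total count, where 0 members were higher. Genes without overlap, higher and lower, then numbered 70 and 48, 68 and 52, and 67 and 37, and on the positive controls 72 were higher. The Wald test of DESeq2 passed 52 genes at an adjusted p under 0.05 and 3 members at an unadjusted one. The per-gene test the methods name gave 87 higher genes and 0 members. With all 8 tumors separate, which counts the near-identical PBS 2 and PBS 4 as independent samples, 4 members were higher. In that setting the ratio of Syk to the macrophage markers turned to 0.024, and it also turned positive after background subtraction (0.032). Without PBS 2 and 4, 17 genes were lower at an unadjusted p under 0.05 and 27 without overlap, Fcgr2b turned to -0.060, Fcgr3 to -0.040 and Lyn relative to the macrophage markers to -0.072.

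Leaving out 1 tumor at a time gave 0 to 7 genes at an adjusted p under 0.05 (7 without STING agonist 3), 77 to 153 higher and 7 to 21 lower at an unadjusted one, 0 to 4 members and 10 to 17 pathway genes higher, and 122 to 235 genes higher and 9 to 31 lower without overlap. The difference of Fcgr3 to Fcgr2b then ran from -0.24 to 0.16, of Syk to Fcgr2b from -5.84e-05 to 0.41, and of Syk to the macrophage markers from -0.16 to 0.094. Exact tests on fewer samples cannot all reach 0.05, so without PBS 1 or 3, or without a treated tumor, these ratios have a value and no usable test. Other scales hardly move a ratio within a sample and say nothing about its stability. Averaging PBS 2 and 4 after scaling, chosen after seeing the data, gave 1.07 for Fcgr1. It gave 134 higher genes and 15 higher pathway genes at an unadjusted p under 0.05, against 133 and 16. The fold changes and ratio differences of the members kept their direction.

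With the replicate number as a replicate block over 8 tumors, 4 members were higher and 1 pathway gene was lower at an unadjusted p under 0.05, with 0 genes at an adjusted p under 0.05. The log2 fold change was then 1.55 for Fcgr1 and 1.53 for Fcgr4 (edgeR adjusted p = 0.138 for both). Same-numbered tumors correlated at -0.28 to -0.09 or above, and 0 of 8 samples correlated best with their own number. No pairing by number was seen, though so few weak correlations cannot exclude it.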
